A study of Rattus norvegicus with 9 samples.

Results

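The rat patellar enthesis, where the patellar tendon inserts into the tibia, was compared between 2 kinds of injury 4 weeks after surgery: an empty defect (ED) and a transversal cut of the tendon (TC). All 84 target genes of an osteogenesis PCR array entered the comparison, out of 84 target genes, 5 housekeeping genes and 7 control wells on a plate of 96 wells. The series held 9 groups (native tissue, ED, TC and 2 silk fibroin scaffold treatments named S-MT and S-AT, the operated groups at 4 and 12 weeks), with 8 rats used for PCR in each operated group and at each time. Only 1 value for each gene and group was deposited, and whether it stems from 1 rat, from an average or from a pool of RNA is not given in the sources used here. Every difference below is therefore 1 value against another, with no error and no test.

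All animals were adult male Sprague Dawley rats with no genetic modification described. In ED, the tendon was detached from the tibia, a defect was sawn into the bone at the insertion, nothing was implanted, and the tendon was sutured back over the defect. In TC, the tendon was cut across near the enthesis and the bone was left intact. The labels give the TC treatment as a suture of tendon to tendon, whereas the methods describe no treatment of the cut. Both operated groups are labelled as controls of the scaffold study. The 2 groups thus differed in the place of the injury, in the presence of a bone defect and in the suture, and these features cannot be told apart. Tissue for RNA was taken after mechanical testing of the same knees, and native tissue is labelled with 4 weeks.

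The enthesis joins tendon, made largely of type I collagen fibrils, to bone through a zone of fibrocartilage that contains type II collagen. After an injury, fibroblast-like cells first deposit a provisional matrix rich in fibronectin and type III collagen. Collagen passes through folding with a dedicated chaperone, secretion, cleavage of its propeptides and assembly into fibrils. Growth factors of the TGF-beta, BMP and IGF families act on these cells through receptors and SMAD proteins, and osteoblasts form mineralized matrix where bone is made.

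The array reads the threshold cycle (Ct), the PCR cycle at which the fluorescence of a well crosses a threshold. A later Ct means less template. A Ct over 35, or a well with no Ct (undetermined), was treated as over the cut-off. Levels were set relative to a reference, the average Ct of *Ldha* and *Rplp1*, and a fold is 2 to the power of the difference between groups.

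At 4 weeks, 42 of the 84 genes were within the cut-off in ED and 24 were within it in TC. All 24 genes of TC were also among the 42 of ED. A further 18 genes were within the cut-off in ED alone, 0 in TC alone, and 42 in neither group. In bulk tissue, fewer cells of a type, less RNA per cell and less template in the wells cannot be told apart in such counts. The mean Ct of the reference genes was 28.18 in ED, 29.77 in TC and 30.02 in native tissue, under the same cut-off of 35. The part of template amount in these counts was not tested. Among the 7 other groups the number within the cut-off ranged from 20 to 83, so that TC at 4 weeks was near the lower end, beside native tissue with 20. Undetermined wells numbered 13 in ED and 18 in TC.

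**Figure D1:**
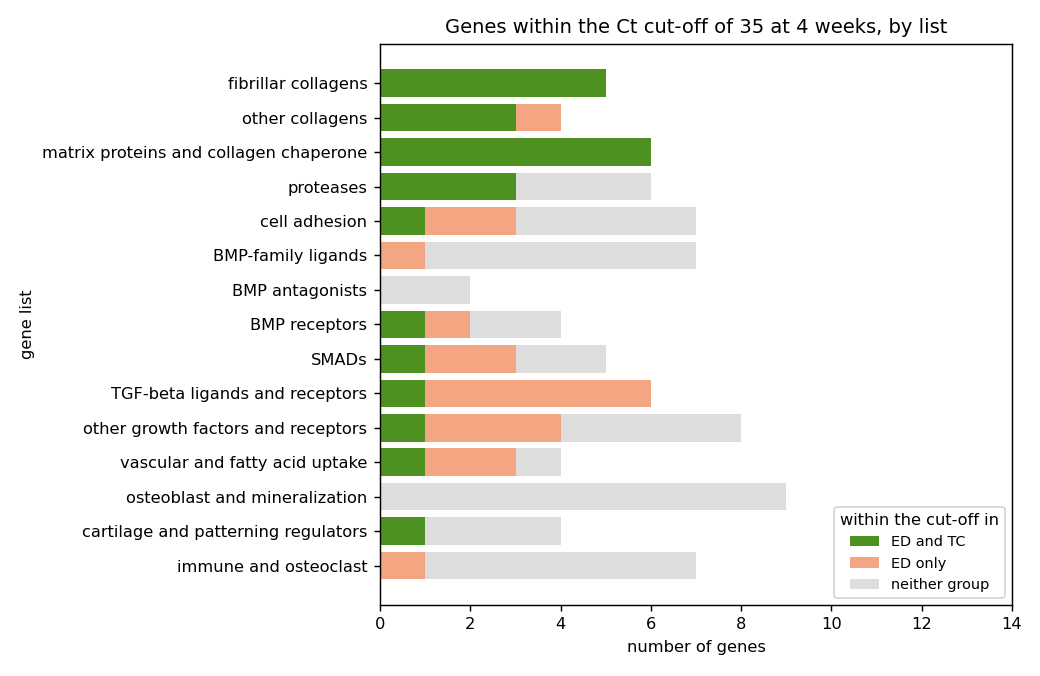
Number of target genes (horizontal axis) by gene list (vertical axis), split by whether the Ct was within 35 in both ED and TC at 4 weeks, in ED alone or in neither. All fibrillar collagens and matrix proteins and 3 of the 4 other collagens were measured in both groups, beside 24 of all 84 genes. Within the cut-off in ED alone were 5 of 6 TGF-beta genes, beside 18 of 84. All 9 osteoblast genes were over it in both, beside 42 of 84.

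Wells of TC crossed the threshold later than those of ED before any normalization. Of the 24 genes measured in both groups, 23 had a later Ct in TC, with a median difference of 2.51 cycles and a range from -1.19 to 4.07. The exception was *Bmp1*. The reference genes were also later in TC, *Ldha* by 1.44 cycles and *Rplp1* by 1.75, which gave a mean reference Ct of 28.18 in ED and 29.77 in TC. The 3 wells H10 to H12, where the maker usually places positive controls of the PCR, had means of 21.1 and 21.3 cycles. Wells H07 to H09, the usual place of controls of the reverse transcription, had means of 23.5 in ED and 24.5 in TC, a delay of 1.06 cycles in TC. The SD within these triplicates was 0.053 to 0.088 cycles, a figure for wells of 1 plate and not for rats.

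The normalization rested on a pair of reference genes that behaved alike in ED and TC. The Ct of *Ldha* lay 5.69 cycles after that of *Rplp1* in ED and 5.38 cycles after it in TC, against 2.26 to 3.25 cycles in the other 7 groups. A direct ratio of ED to TC therefore moved by at most 0.15 on the log2 scale when either gene was used alone. This follows from the 2 differences by arithmetic. Their likeness was known when the comparison was chosen, so it is no independent check of the reference. The 3 housekeeping genes that did not enter the reference were near equality after normalization, with log2 folds of -0.12 for *Actb*, -0.40 for *B2m* and 0.06 for *Hprt1*. A comparison of either group with any of the other 7 groups depended far more on which of *Ldha* and *Rplp1* was chosen.

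**Figure D2:**
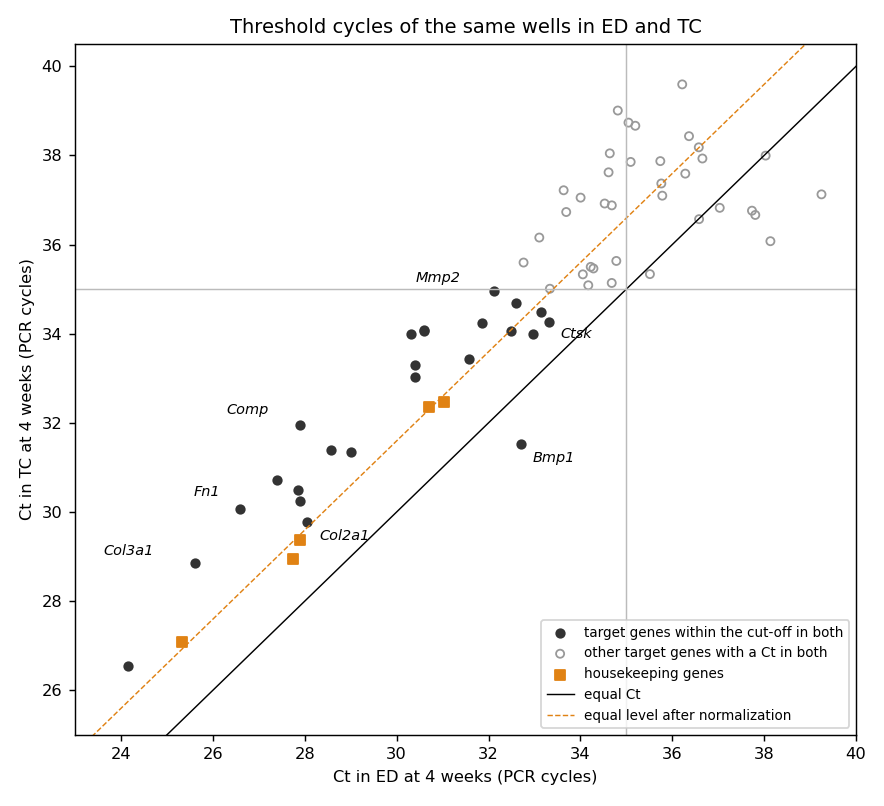
Ct in TC (vertical axis, PCR cycles) against Ct in ED (horizontal axis, PCR cycles) at 4 weeks, for target genes within the cut-off in both groups, other target genes with a Ct in both, and housekeeping genes. The solid line marks equal Ct and the dashed line equal level after normalization, and *Comp* (27.9 and 32.0 cycles) and *Bmp1* (32.7 and 31.5 cycles) lie on opposite sides of it.

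Of the 24 genes measured in both groups, 12 were at least 2-fold higher in ED (50 percent), 1 was at least 2-fold lower in ED (4.17 percent) and 11 lay within 2-fold. As a share of the 42 genes for which a fold or a bound could be given, the 12 genes were 28.6 percent. Above 0 on the log2 scale were 19 of the 24, and the median log2 fold was 0.92 (1.89-fold). This balance was relative to the housekeeping genes. With the log2 folds centred on their own median, an alternative added after the data were seen, 2 genes were at least 2-fold higher in ED (*Comp* and *Col6a1*) and 4 were lower (*Bmp1*, *Ctsk*, *Smad2* and *Twist1*). With the median Ct of the 24 genes as reference, every log2 fold shifted by -1.16. The counts were then 1 higher (*Comp*) and 6 lower (*Bmp1*, *Col2a1*, *Col14a1*, *Ctsk*, *Smad2* and *Twist1*).

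**Figure D3:**
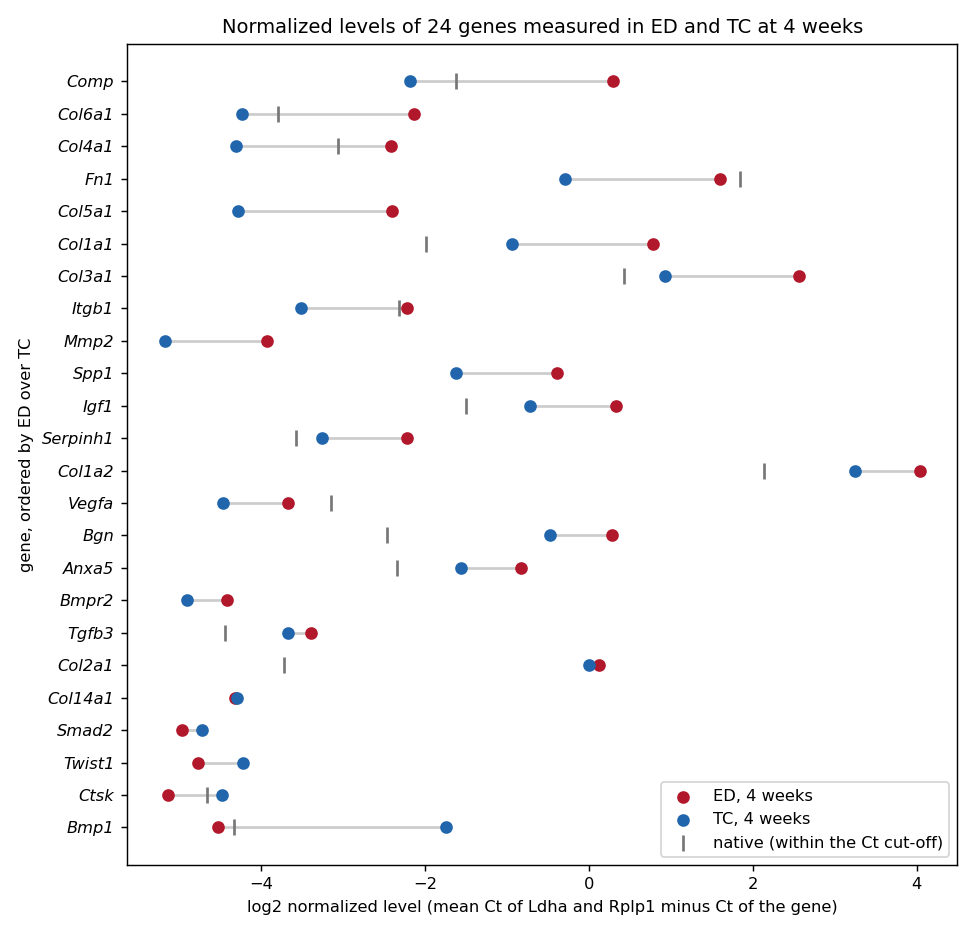
Level of the 24 genes measured in both groups at 4 weeks, as log2 (the mean Ct of *Ldha* and *Rplp1* minus the Ct of the gene, horizontal axis), with 1 point for ED and 1 for TC per gene (vertical axis) and a tick for native tissue where its Ct was within the cut-off. The points of *Comp* are 5.57-fold apart with ED higher and those of *Bmp1* are 6.88-fold apart with TC higher, and there are no error bars because each group has 1 value.

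Of the 5 fibrillar collagens, all were above 0 on the log2 scale and 3 were at least 2-fold higher in ED than in TC, a share near the 12 of 24 over all measured genes. Their median log2 fold was 1.63, against 0.92 over the 24 genes. The median of these collagens remained above 0 under every reference tried, at 0.72 after centring and 0.47 with the median Ct as reference. In each of these settings 3 of the 5 were above 0, beside 12 and 10 of the 24 genes. *Col1a2* and *Col2a1* were below 0 in both, and *Col2a1* was at -1.04 with the median Ct as reference. *Col1a1*, which encodes the main chain of type I collagen in tendon and bone, had a Ct of 27.40 in ED and 30.71 in TC, a 3.29-fold higher level in ED. *Col3a1*, the collagen of early repair tissue, had a Ct of 25.62 in ED and 28.84 in TC, or 3.10-fold. *Col5a1*, whose product helps to initiate collagen fibrils, had a Ct of 30.59 in ED and 34.06 in TC, or 3.67-fold.

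The other chain of type I collagen and the cartilage collagen were closer between the injuries. *Col1a2* had a Ct of 24.14 in ED and 26.53 in TC, a 1.74-fold difference. *Col2a1*, the collagen of cartilage and fibrocartilage, had a Ct of 28.06 in ED and 29.78 in TC, a 1.09-fold difference. Its direction turned with *Rplp1* alone, with the median Ct as reference and after centring. Ratios of 2 target genes within a group need no housekeeping gene. The ratio of *Col1a1* to *Col1a2* was higher in ED than in TC by 0.92 on the log2 scale, and that of *Col1a1* to *Col2a1* was 3.02-fold higher. The error of single wells enters such a ratio and is not known for target genes.

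Of the 4 other collagens, 3 were measured in both groups and 2 of these were at least 2-fold higher in ED, again near the 12 of 24 over all measured genes. *Col6a1*, a chain of the microfibrils around cells, had a Ct of 30.31 in ED and 34.00 in TC, or 4.27-fold higher in ED. *Col4a1*, a chain of basement membrane collagen, had a Ct of 30.60 in ED and 34.09 in TC, or 3.71-fold. *Col14a1*, a collagen that associates with fibrils, had a log2 fold of -0.03, from a Ct of 32.50 in ED and 34.07 in TC. *Col10a1*, the collagen of hypertrophic chondrocytes, was within the cut-off in ED alone at 34.64, and its Ct of 38.05 in TC was over it.

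All 6 matrix proteins and the collagen chaperone of the array were measured in both groups, and 4 of the 6 were at least 2-fold higher in ED, beside 12 of 24 over all measured genes. Their median log2 fold was 1.13, and it was 0.21 after centring and -0.03 with the median Ct as reference. *Comp*, an oligomeric matrix protein of tendon and cartilage that binds collagen, had the highest fold of the 24 genes, 5.57-fold, from a Ct of 27.89 in ED and 31.96 in TC. *Fn1*, the fibronectin of the provisional wound matrix, had a Ct of 26.58 in ED and 30.06 in TC, or 3.70-fold. These 2 genes were the farthest apart of the 6.

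*Spp1* encodes osteopontin, a phosphoprotein of bone matrix that is also made by other cells at injury sites. It had a Ct of 28.57 in ED and 31.39 in TC, a 2.34-fold higher level in ED. *Serpinh1*, the collagen-specific chaperone of the endoplasmic reticulum, had a Ct of 30.41 in ED and 33.04 in TC, or 2.05-fold. Its fold was close to the 2-fold limit, with a log2 fold of 0.88 with *Rplp1* alone as reference, and its direction turned with the median Ct as reference. *Bgn*, the small proteoglycan biglycan, was 1.68-fold and *Anxa5*, a calcium-dependent phospholipid-binding protein, 1.65-fold higher in ED, both within 2-fold.

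Of the 6 proteases, 3 were measured in both groups and they lay on either side of equality. *Bmp1* was the only one of the 24 genes at least 2-fold lower in ED. Despite its name, its product is a secreted protease that removes the C-terminal propeptide from procollagens, and not a ligand of the BMP family. Its Ct was 32.71 in ED and 31.52 in TC, so that it was the single gene of the 24 with an earlier raw Ct in TC, and its level was 6.88-fold higher in TC. Relative to the housekeeping mean, *Bmp1* stood at 0.0433 in ED and 0.298 in TC, and the TC value was the highest of the 9 groups. With *Rplp1* alone as reference it ranked below the TC and ED groups of 12 weeks.

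*Mmp2*, the gelatinase A of connective tissue, had a Ct of 32.11 in ED and 34.95 in TC, or 2.37-fold higher in ED. The TC value lay only just within the cut-off, and it was the latest of the 24 genes in that group. *Ctsk*, the collagen-degrading cathepsin of osteoclasts, had a Ct of 33.31 in ED and 34.26 in TC and was 1.57-fold higher in TC. *Mmp8*, *Mmp9* and *Mmp10* were over the cut-off in both groups.

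The contrast between *Bmp1* and the matrix genes could be read without a housekeeping gene. The ratio of *Serpinh1* to *Bmp1* was 14.1-fold higher in ED than in TC, and the ratio of *Comp* to *Bmp1* was 38.3-fold higher. Both combine folds already given. *Comp* and *Bmp1* had the highest and the lowest of the 24 folds, so their ratio is the largest of any pair by choice. *Bmp1* sits in row A of the plate, where the median log2 fold of the 3 genes measured in both groups was 0.73. Rows A to D and rows E to G had like medians, 0.92 over 16 genes and 0.91 over 8. Row C held 5 of the 12 higher genes among its 6 measured genes, 4 collagens and *Comp* in adjacent wells, so plate position and gene family cannot be told apart there.

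**Figure D4:**
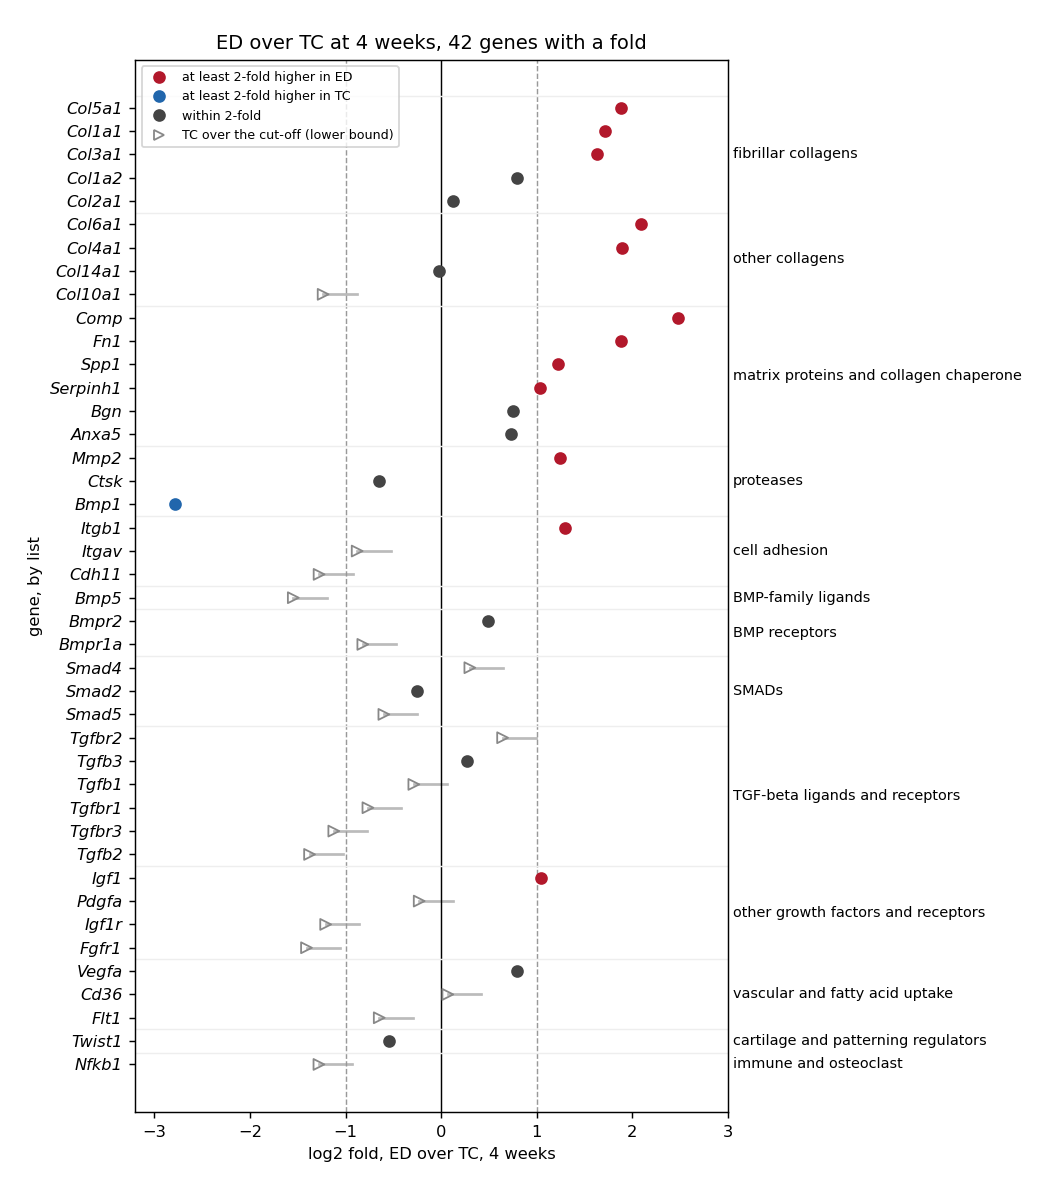
Log2 fold of ED over TC at 4 weeks (horizontal axis) for the 42 genes with a fold or a bound (vertical axis), ordered by gene list, with dashed lines at 2-fold. Filled points are genes measured in both groups and open triangles are lower bounds of genes over the cut-off in TC, the highest of which is 1.56-fold for *Tgfbr2*.

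Among adhesion genes, *Itgb1*, the beta subunit shared by receptors for collagen and fibronectin, was measured in both groups. It had a Ct of 30.40 in ED and 33.29 in TC, or 2.45-fold higher in ED. *Itgav* and *Cdh11*, an integrin alpha subunit and a mesenchymal cadherin, were within the cut-off in ED alone. *Icam1*, *Itga2*, *Itga3* and *Vcam1* were over it in both.

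*Igf1*, a growth factor that acts on tendon and cartilage cells, was the only one of the 8 genes in its list measured in both groups. It had a Ct of 27.86 in ED and 30.50 in TC, or 2.06-fold higher in ED, and was therefore at the 2-fold limit, with a log2 fold of 0.89 with *Rplp1* alone as reference. Relative to the housekeeping mean, its level was 1.25 in ED and 0.607 in TC, the highest and the next highest of the 9 groups. ED remained the highest with *Ldha* or *Rplp1* alone, whereas TC ranked 5 of 9 with *Rplp1* alone. Its receptor gene *Igf1r* was within the cut-off in ED alone, as were *Fgfr1*, a fibroblast growth factor receptor, and *Pdgfa*, a platelet-derived growth factor chain. *Egf*, *Fgf1*, *Fgf2* and *Fgfr2* were in neither group.

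Of the 6 TGF-beta ligands and receptors, 5 were within the cut-off in ED alone, as were 18 of all 84 genes, beside a reference Ct that was 1.60 cycles later in TC. *Tgfb3* was measured in both groups, at 33.44 against 31.58 cycles in ED, a 1.21-fold difference. For *Tgfb1*, *Tgfb2*, *Tgfbr1*, *Tgfbr2* and *Tgfbr3* the fold is a lower bound, because the Ct of TC entered at 35. The highest of these bounds was that of *Tgfbr2*, the type II receptor that binds the ligand, at 1.56-fold from a Ct of 32.76 in ED and 35.60 in TC. The other 4 bounds were below 1 and give no direction. Without the cut-off, the ratios of ED to TC lay on both sides of 1, at 2.72 for *Tgfb1*, 2.36 for *Tgfbr2* and 1.74 for *Tgfbr3* and at 0.597 for *Tgfb2* and 0.624 for *Tgfbr1*, the last with a Ct of 35.09 in TC.

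Genes of the BMP pathway were mostly over the cut-off, as were 42 of all 84 genes in both groups. Of the 7 ligands of the BMP family, *Bmp5* was within it in ED alone, at 34.95, and *Bmp2*, *Bmp3*, *Bmp4*, *Bmp6*, *Bmp7* and *Gdf10* were in neither group. The antagonists *Chrd* and *Nog* were in neither group as well. *Bmpr2*, the type II BMP receptor, was measured in both, with a Ct of 32.60 in ED and 34.69 in TC and a 1.41-fold difference. *Bmpr1a* was within the cut-off in ED alone, and *Acvr1* and *Bmpr1b* in neither.

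*Smad2*, which carries the TGF-beta signal to the nucleus, was measured in both groups. Its Ct was 33.15 in ED and 34.49 in TC, and its log2 fold of -0.25 lay within 2-fold. *Smad4*, the partner shared by both pathways, and *Smad5*, of the BMP branch, were within the cut-off in ED alone. *Smad1* and *Smad3* were in neither.

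*Vegfa*, the vascular growth factor, had a Ct of 31.85 in ED and 34.24 in TC, a 1.73-fold difference. *Flt1*, a receptor for it on endothelium, and *Cd36*, a fatty acid and thrombospondin receptor, were within the cut-off in ED alone. *Twist1*, a transcription factor of mesenchymal cells, had a Ct of 32.96 in ED and 34.00 in TC and was 1.46-fold higher in TC. *Nfkb1* was the 1 gene of 7 in the immune and osteoclast list with a Ct within the cut-off, in ED alone at 34.68.

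The bounds of the 18 genes seen in ED alone were weak. Their Ct in ED ran from 32.76 to 34.95, and their bounds from -1.55 to 0.64 on the log2 scale. *Tgfbr2*, *Smad4* and *Cd36* had a bound above 0, at 0.64, 0.30 and 0.07, and 0 of the 18 reached 2-fold. A bound below 0, as in the other 15, does not show a lower level in ED.

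Without the cut-off, 17 of the 18 had a Ct in TC. Because these genes were picked by a Ct within 35 in ED and over it in TC, a higher level in ED is favoured by the choice itself, and their directions are not counted. Single values ran from 6.06-fold for *Fgfr1*, from 34.81 and 39.01 cycles, to 0.454-fold for *Cdh11*, from 34.68 and 35.14 cycles. Over all 60 genes with a Ct in both groups, 24 were at least 2-fold higher and 10 at least 2-fold lower in ED. Well H06, the usual place of the control for genomic DNA, crossed at 34.0 cycles in ED and 36.5 in TC, and 12 of the 18 genes had a later Ct in ED than that well. The 12 genes at least 2-fold higher in ED were all at least 1 cycle ahead of well H06 in ED, the group where they are high. The part of genomic DNA in the late wells was not tested.

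The cut-off itself separated genes that were nearly alike. Just inside it were *Mmp2* in TC at 34.95 and *Bmp5* in ED at 34.95, and just outside it were *Cd36* in TC at 35.01 and *Sox9* in ED at 35.05.

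The labelled tissue was set beside its markers. This is no test of the label, since *Col1a1* also belongs to bone and every group of the series is enthesis. Transcripts of tendon and fibrocartilage matrix, *Col1a1*, *Col1a2*, *Comp* and *Bgn*, were within the cut-off in both groups, at 24.14 to 27.90 cycles in ED and 26.53 to 31.96 in TC. Of the cartilage markers, *Col2a1* was in both groups, *Col10a1* in ED alone and *Sox9*, the transcription factor of chondrocytes, in neither. All 5 bone markers, *Bglap*, *Alpl*, *Sp7*, *Phex* and *Sost*, were over the cut-off in both groups. The myeloid marker *Itgam* was undetermined in both, and of the osteoclast markers *Ctsk* was in both and *Mmp9* in neither.

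The other genes of the osteoblast and mineralization list, *Ahsg*, *Dlx5*, *Runx2* and *Vdr*, were over the cut-off in both groups too. This makes 0 of 9 within it in either group, beside 42 of all 84 genes over it in both. No difference in the 9 genes of this list was therefore measurable at this depth, between a group with a bone defect and a group without one. *Spp1*, which also encodes a protein of bone matrix, was in another list and was 2.34-fold higher in ED. Of all 42 genes measured in neither group, 7 were undetermined in both, 10 had a late Ct in ED alone, 6 in TC alone and 19 in both. In these 19 the Ct was earlier in ED for 11 and in TC for 8. None of the 42 was within the cut-off in native tissue, whereas 41 were within it in ED at 12 weeks and 15 in TC at 12 weeks. Over all 84 genes, 20 were within it in native tissue, 83 in ED at 12 weeks and 51 in TC at 12 weeks. Of these, 64 in ED and 49 in TC at 12 weeks were later than well H06.

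Native tissue gave a common point for both injuries, and since both ratios use the same native value they are set side by side only. *Comp* stood at 3.78-fold of native in ED and 0.679-fold in TC. *Fn1* stood at 0.839-fold in ED, whereas native tissue was 4.40-fold higher than TC. *Bmp1* stood at 0.873-fold of native in ED and 6.01-fold in TC. Of these, *Bmp1* in TC was the value that stayed at least 2-fold above native with *Ldha* or *Rplp1* alone. *Comp* in ED was 1.51-fold of native with *Rplp1* alone. With *Ldha* alone, *Fn1* in ED was 2.10-fold of native, and native tissue was 1.95-fold higher than TC in *Fn1*. *Bmp1* in ED and *Comp* in TC also turned from below to above native with *Ldha* alone.

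*Col2a1* was above native by a like amount in both groups, 14.4-fold in ED and 13.2-fold in TC. *Col1a1* stood at 6.79-fold and 2.06-fold of native, and *Bgn* at 6.69-fold and 3.97-fold. With *Rplp1* alone, *Col1a1* in TC turned to 0.916-fold and *Bgn* in TC to 1.76-fold of native, while *Col2a1* stayed at least 2-fold above native in both groups under either gene. For *Spp1*, undetermined in native tissue, the ratios are lower bounds of 24.0-fold in ED and 10.3-fold in TC. These ratios to native, unlike the direct ratio of ED to TC, moved with the reference, since native tissue itself differed by 2.51-fold from ED and 2.25-fold from TC in *Ldha* relative to the mean of both reference genes.

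The same contrast at 12 weeks, measured in other samples, gave other values for most of these genes. There, 51 genes were measured in both groups and 32 in ED alone, 12 of the 51 were at least 2-fold higher in ED (23.5 percent) and 7 lower (13.7 percent), and the median log2 fold was 0.14. The balance depended on the reference, with 8 higher and 10 lower with *Ldha* alone and 19 higher and 3 lower with *Rplp1* alone, references tried after the data were seen, since *Ldha* lay 2.26 cycles after *Rplp1* in ED and 2.90 in TC at that time. Of the 12 genes higher in ED at 4 weeks, *Col6a1* was again at least 2-fold higher at 12 weeks (2.10-fold), 9 were within 2-fold, and *Comp* and *Mmp2* were at least 2-fold lower. *Comp* had a Ct of 28.02 in ED and 30.52 in TC at 12 weeks, a 2.03-fold higher level in TC. *Mmp2* was 2.60-fold higher in TC. The value of *Col6a1* was 1.68-fold with *Ldha* alone and that of *Comp* 1.62-fold higher in TC with *Rplp1* alone, both within 2-fold. *Mmp2* stayed past 2-fold with either. Of the 9 genes within 2-fold, *Fn1* and *Itgb1* were at least 2-fold lower in ED with *Ldha* alone, at log2 folds of -1.28 and -1.03. With *Rplp1* alone, *Col5a1* and *Serpinh1* were at least 2-fold higher in ED, at 1.12 and 1.04.

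*Bmp1* at 12 weeks had a Ct of 28.96 in ED and 32.10 in TC, and its log2 fold of -0.38 lay within 2-fold. Over the 23 genes measured in both groups at both times, the median log2 fold was -0.01 at 12 weeks and 11 of the 23 were above 0. The difference between times was not tested, since each time has 1 value per group. Well H06 crossed at 29.2 cycles in ED and 30.4 in TC at 12 weeks, and 77 of the 83 genes within the cut-off in ED and 50 of the 51 in TC were within 1 cycle of that well or later. Of the 12 genes higher in ED at 4 weeks, 4 in ED and 0 in TC were at least 1 cycle ahead of it at 12 weeks. Wells H10 to H12 of ED at 12 weeks had a mean of 19.1 cycles, against 21.2 in TC. The part of these wells in the folds of 12 weeks was not tested.

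**Figure D5:**
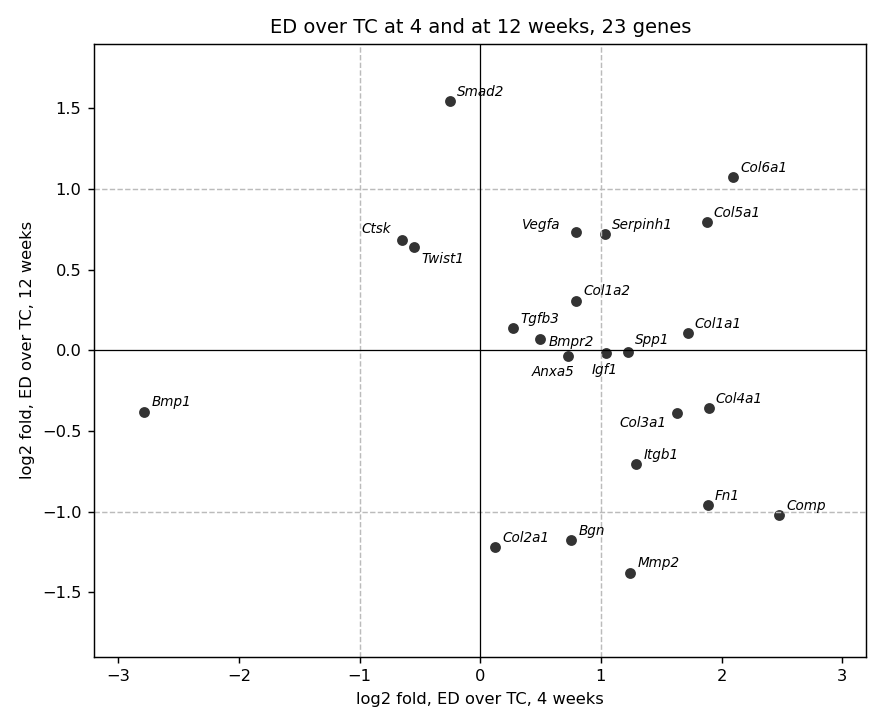
Log2 fold of ED over TC at 12 weeks (vertical axis) against that at 4 weeks (horizontal axis) for the 23 genes measured in both groups at both times, with dashed lines at 2-fold. *Comp* lies at 2.48 and -1.02, *Mmp2* at 1.24 and -1.38 and *Bmp1* at -2.78 and -0.38. *Col6a1* is the 1 gene past 2-fold in the same direction at both times, a call at 12 weeks that ends with *Ldha* alone as reference. With *Rplp1* alone, not drawn here, *Col5a1* is past 2-fold at both times too (1.72 and 1.12).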

How the data were processed

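Total RNA of the patellar enthesis was isolated by phenol-chloroform extraction and read with SYBR Green on a rat osteogenesis PCR array of 96 wells. The authors deposited 3 tables. The first holds the Ct per well (PCR cycles), and folds were computed from it except where the authors' normalized values are named. The second holds the authors' values as ratios, 2 to the power of minus delta Ct against *Ldha* and *Rplp1* averaged. The third holds fold changes against native tissue made with the portal of the array's maker. The last holds the authors' own comparisons and was not used. Deposited Ct values carry no replicate, so no error, test or precision can be given, and the Ct cut-off limits what is detectable. Wells were named by the symbols of the second table, and all 84 target and 5 housekeeping symbols were found in the RefSeq rat table. That table lists a value for *Egf* in ED and TC and for *Fgfr1* in TC at 4 weeks, although their Ct is over 35. Control wells were named after the layout that the maker usually uses, since no source used here names them.

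Ct values over 35 or undetermined were set to 35, and genes over it in both groups were left out. Where TC was at 35, the fold is a lower bound. Genes were called at 2-fold. Calculations used Python 3.11.15, pandas 2.3.3 and numpy 2.4.6, figures matplotlib 3.10.9, and the arithmetic was tested on simulated data. Named were all genes measured in both groups or in ED alone, and others by list. All 84 target genes entered, and the comparison and the 15 lists were chosen with earlier results of these data known. Alternatives were other references (*Ldha*, *Rplp1*, 5 housekeeping genes, the median target Ct), a cut-off of 33 or none, genes measured in both groups alone, an amplification of 1.9 per cycle, the authors' normalized values, genes at least 1 cycle ahead of well H06, and plate rows. Centring on the median fold, and *Ldha* or *Rplp1* alone at 12 weeks and against native, were added after the data were seen.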

Additional observations from a re-analysis of the deposited data

Results flagged for a closer look

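*Comp* and *Mmp2* were past 2-fold in opposite directions at the 2 times. The log2 fold of ED over TC of *Comp* was 2.48 at 4 weeks and -1.02 at 12 weeks, the latter -0.70 and so within 2-fold with *Rplp1* alone as reference. That of *Mmp2* was 1.24 at 4 weeks and -1.38 at 12 weeks. With *Ldha* alone, *Fn1* (2.04 and -1.28) and *Itgb1* (1.45 and -1.03) were also past 2-fold in opposite directions. The difference between times was not tested, since each value comes from 1 measurement per group. The Ct of *Mmp2* in TC was late at both times, 34.95 at 4 weeks and 34.81 at 12 weeks. In TC at 12 weeks, *Mmp2* and *Comp* (30.52) were both later than control well H06 (30.42).

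Control well H06, which is no target gene, gave a Ct at least 1 cycle earlier than in native tissue (34.9) in both groups at 12 weeks. It was 29.2 in ED at 12 weeks and 30.4 in TC at 12 weeks, against 34.0 and 36.5 in the same groups at 4 weeks.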

How the results depend on the processing

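The 12 genes higher and the 1 lower in ED kept their counts with *Ldha* alone and with 5 housekeeping genes. Genes measured in both groups alone gave the same counts by construction, since no bound of a gene in ED alone reached 2-fold. This setting also leaves 0 in ED alone by construction. The counts of 12 and 1 also stayed with genes at least 1 cycle ahead of well H06 (1 in ED alone). That filter used the Ct of the group where a gene was higher, which favours keeping the calls. *Rplp1* alone and an amplification of 1.9 each gave 10 higher, without *Igf1* and *Serpinh1*, and 1 lower. The median target Ct as reference gave 1 higher and 6 lower, a median log2 fold of -0.25, and turned *Serpinh1* (-0.13) and *Igf1* (-0.12), and centring, added after the data were seen, gave 2 higher and 4 lower. Both remove by construction a difference that most of the 24 genes share. A cut-off of 33 left 11 genes in both groups. It gave 8 higher, of which *Col6a1* (1.09) and *Itgb1* (1.00) were over 33 in TC and so lower bounds. *Col4a1* (0.80), *Col5a1* (0.82) and *Serpinh1* (1.00, just short of 2-fold) lost the call, and *Mmp2* turned to -0.71. These values are lower bounds by construction as well. No cut-off gave 60 genes with a Ct in both groups, 24 higher and 10 lower. The authors' normalized values gave 13 higher and 2 lower, adding *Fgfr1* and *Egf*. Plate rows A to D held 8 higher, 1 lower and 8 in ED alone, and rows E to G held 8 in both, 4 higher, 0 lower and 10 in ED alone, counts over fewer genes by construction. *Bmp1* was at least 2-fold lower in ED under each alternative that holds its well. With *Rplp1* alone, the 12 week counts were 19 higher and 3 lower, and *Col1a1* in TC over native turned to -0.13 on the log2 scale. No paired analysis was possible because each group has 1 value, and no replicate could be left out.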

Other observations

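Levels of the 24 genes relative to those of the other 7 groups depended on the reference gene, because *Ldha* was late against *Rplp1* in both ED and TC at 4 weeks. With the mean of both, ED at 4 weeks had the highest level of the 9 groups for *Comp* (1.22, against 0.584 for the next, TC at 12 weeks), *Col2a1*, *Bgn*, *Col4a1* and *Igf1*. With *Rplp1* alone, only *Igf1* among these 5 remained highest in ED at 4 weeks.

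Within TC at 4 weeks, *Mmp2* was late against *Ctsk* and in ED it was early. The ratio of *Mmp2* to *Ctsk* was 3.72-fold higher in ED, and that of *Comp* to *Col2a1* was 5.10-fold higher.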
